A study of Mus musculus with 2 samples.

Results

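Cathepsins are proteases, most of which act in the lysosome. In the pancreatic lymph node of diabetic mice, 9 of their genes (Ctsa, Ctsb, Ctsc, Ctsd, Ctse, Ctsh, Ctsl, Ctss and Ctsz) were followed. They were chosen by gene name in the array annotation, which gave 9 of 27557 genes and 14 of the 41174 gene probes. Total RNA came from 16-week-old female mice of the non-obese diabetic (NOD) strain, which develops autoimmune diabetes without treatment. On each of 2 two-colour arrays, Cy5 carried 1 hyperglycemic mouse, with more than 500 mg/dl glucose in blood, and Cy3 carried 1 shared pool made from 2 euglycemic mice, with less than 200 mg/dl. The comparison asks which transcripts differ between the nodes of hyperglycemic and euglycemic mice. The 2 hyperglycemic mice are the replicates, and the pool is 1 control sample, which leaves out how control mice vary. The dyes were not swapped, so a dye effect of a probe cannot be told apart from the difference between the groups. A ratio in whole tissue also cannot separate fewer cells of a type from less RNA per cell.

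Most cathepsins are made as inactive precursors, carried to the acidic lysosome and activated there by removal of a propeptide. Ctsb, Ctsc, Ctsh, Ctsl, Ctss and Ctsz are cysteine proteases of the papain family, Ctsd and Ctse are aspartic proteases, and Ctsa is a serine carboxypeptidase. In antigen-presenting cells, Ctss removes the last part of the invariant chain Cd74 from MHC class II molecules before peptide loading, and in mouse thymic epithelium Ctsl does this instead. Macrophages, dendritic cells and B cells of a lymph node are all known to express several of them.

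The arrays were unequal in their 2 dyes. The median Cy5 signal over gene spots was 37.7 and 38.2 on arrays 1 and 2, where the median background was 35, against Cy3 medians of 234 and 81.2. Cy5 was well above background at 14.5% and 16.4% of gene spots, and Cy3 at 21.7% and 63.0%. No spot was saturated. Ratios below are log2 of Cy5 over Cy3 in the processed signals of the scanning software, which correct for background and dye, and are given as mean ± SD over the 2 mice. Positive values mean more signal from the hyperglycemic mouse. A probe was tested where both channels were well above background on both arrays (5068 probes of 4402 genes), and was called at an adjusted p under 0.05. Among lymphocyte markers, 8 of 13 T cell genes and 4 of 8 B cell genes passed this filter. So did all 18 genes on the array that mark exocrine pancreas, which is not a lymph node tissue.

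Of the 14 cathepsin probes, 11 passed the filter, and the same 11 are in the deposited value table. They stand for 8 genes, since the only Ctse probe did not pass. The other 3 probes, of Ctsa, Ctsb and Ctse, are not in that table. Over local background the 11 probes read from 1736 to 30368 in Cy3 on array 1 and from 1040 to 17452 on array 2. In Cy5 they read from 15.9 to 670 and from 12.2 to 501. The Cy3 signal over background was thus between 25.3 and 246 times the Cy5 signal on array 1, and between 19.2 and 87.6 times on array 2. Both extremes belonged to single genes, the smallest factor to Ctsl and the largest to Ctsc.

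**Figure D1:**
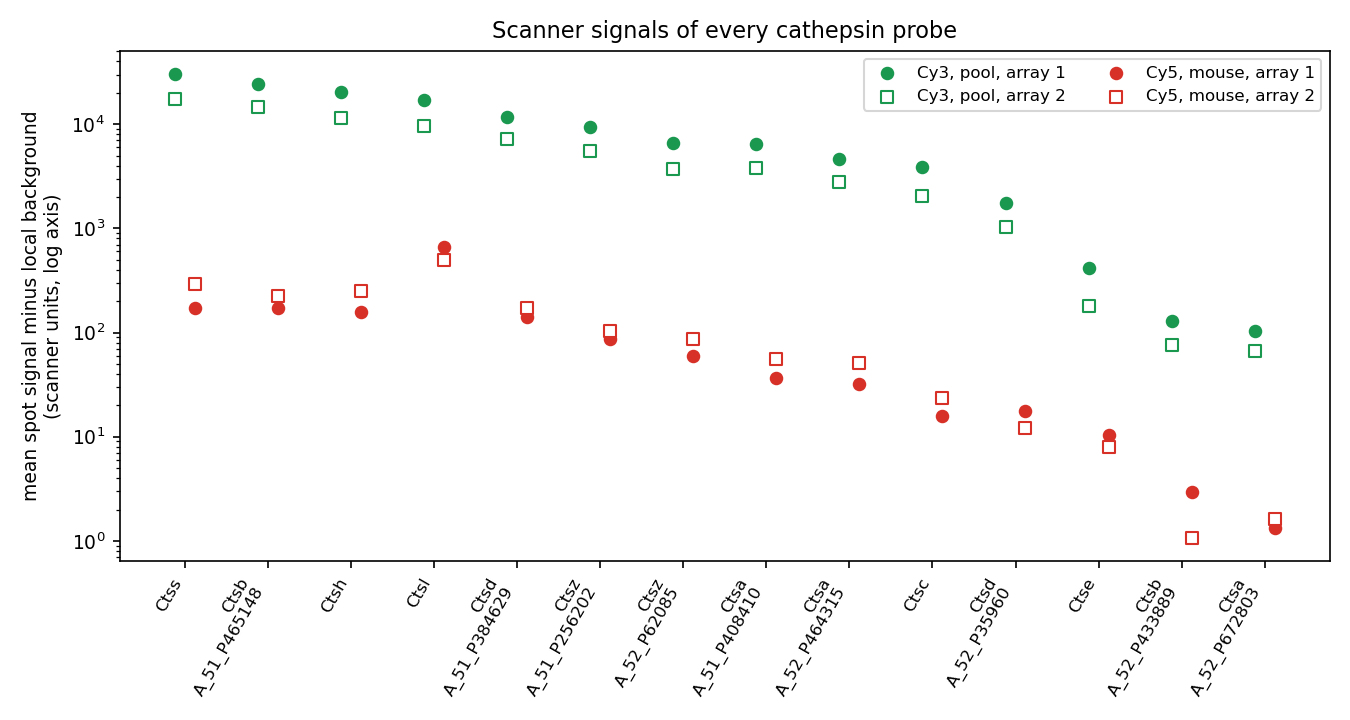
Mean spot signal minus local background (scanner units, log axis) of the 14 cathepsin probes, in Cy3 (pool, green) and Cy5 (hyperglycemic mouse, red) on array 1 (filled circles) and array 2 (open squares), before any normalization. Cy5 lies far below Cy3 at every probe, and the Cy5 signal of Ctsl, 670 and 501, is the highest of the 14 on both arrays although its Cy3 signal is not.

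The cathepsins did not move together. Ctsl was higher in both hyperglycemic mice, at 1.51 ± 0.51 (2.85-fold), though below 0 with median centring of unadjusted scanner signals. Ctsc, Ctss, Ctsb and Ctsa were lower, by 1.42-fold to 1.82-fold, Ctss and Ctsb lying above 0 under another normalization, and Ctsd, Ctsh and Ctsz did not pass the test. Over the 8 tested genes, each at its brightest probe, 1 was called higher, 4 lower and 3 were not called, a share of 62.5%. Calls were common in this comparison: 43.6% of all tested genes were called, 25.4% as higher and 18.2% as lower. Counted by probe, 5 of 11 cathepsin probes were called (45.5%), against 43.5% of all tested probes (25.2% higher and 18.4% lower), so the number of calls is close to the background. The median over the 8 genes was -0.34, beside 0.07 over all tested genes. Their means had an SD of 0.76 among themselves, against 0.67 among all tested genes.

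**Figure D2:**
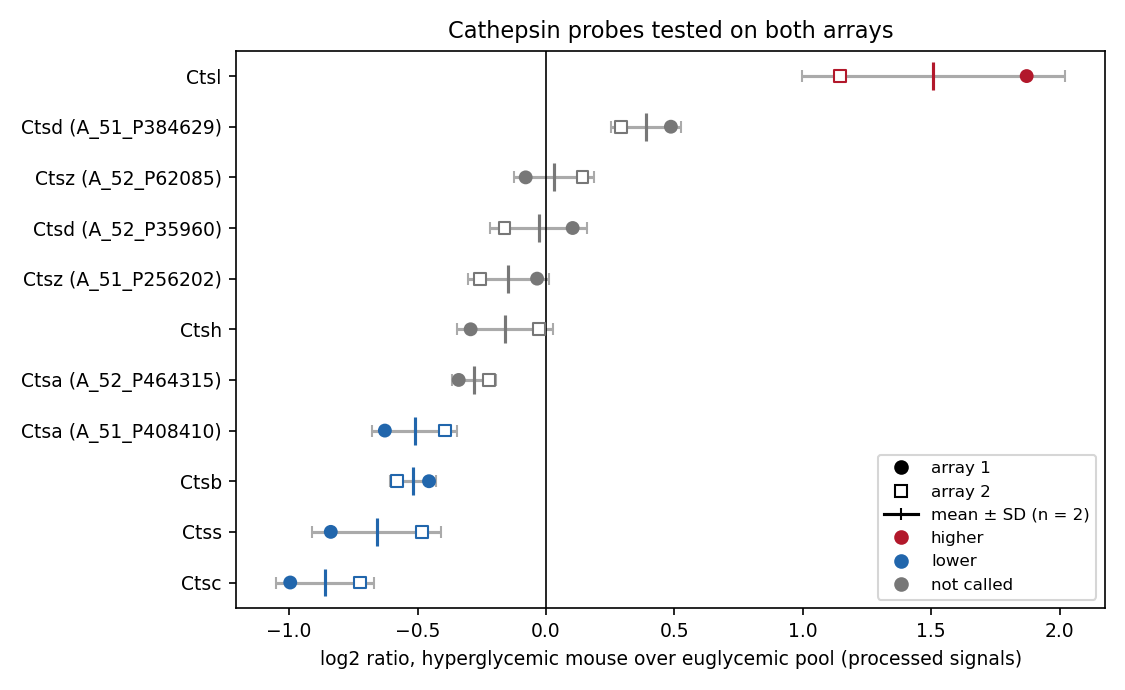
Log2 ratio of hyperglycemic mouse over euglycemic pool (processed signals) for the 11 tested cathepsin probes, with array 1 as filled circles, array 2 as open squares, and the mean ± SD as a tick with bars. Ctsl (red, called higher) lies at 1.87 and 1.15, apart from all others, while the 4 probes called lower (blue) lie below 0 on both arrays, of which Ctss and Ctsb are above 0 on average with normexp and loess.

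Ctsl, cathepsin L, is an endopeptidase that degrades proteins taken up into lysosomes and also processes other cathepsins. Its probe lies on mm8 chromosome 13, 64378710 to 64378769. The processed Cy5 signal was 28725 in mouse 1 and 25857 in mouse 2, and the pool read 7849 and 11684 on the same arrays. Each mouse was above the pool on its own array, and the ratios were 1.87 and 1.15 (adjusted p = 0.00185, limma). It was the only cathepsin probe beyond 2-fold on both arrays, as were 5.31% of all tested probes in the higher direction; 0 were beyond 2-fold lower on both arrays, against 2.84%.

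Ctss, cathepsin S, is the endopeptidase known for trimming the invariant chain and for staying active at neutral pH. Its probe (chromosome 3, 95641644 to 95641703) read 7494 and 15871 in the hyperglycemic mice and 13394 and 22156 in the pool. Each mouse was below the pool on its own array, with ratios of -0.84 and -0.48 (mean -0.66 ± 0.25, 1.58-fold lower, adjusted p = 0.0169, limma). With the scanner signals corrected by normexp (offset 50) and loess the probe was at 0.25 ± 0.12 (adjusted p = 0.254), so the direction for Ctss depends on the processing. With the loess curve fitted on probes above background in both channels it was called lower, at -0.77 ± 0.28 (adjusted p = 0.0136, limma). Leaving out median centring of scanner signals, 9 of 11 alternatives put Ctss below 0 and 2 above, and 5 called it lower.

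Ctsc, also called dipeptidyl peptidase I, removes dipeptides from the start of proteins and activates the granule serine proteases of cytotoxic lymphocytes and neutrophils. It had the lowest ratios of the 11 probes on both arrays, -0.996 and -0.73, with a mean of -0.86 ± 0.19 (1.82-fold lower, adjusted p = 0.00561, limma; chromosome 7, 88185118 to 88185177). The processed signals were 795 and 1370 in the mice, against 1585 and 2265 in the pool. The call was lost with normexp and loess (-0.39, adjusted p = 0.132) and with the loess curve fitted on probes above background in both channels (-0.29, adjusted p = 0.119). In Cy5 this probe stood only 15.9 and 23.6 scanner units over its local background. The granule proteases that Ctsc activates could not be set beside it, since 0 of 8 on the list (Gzma, Gzmb, Gzmk, Gzmm, Elane, Prtn3, Cma1 and Mcpt4) passed the filter.

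Ctsb, cathepsin B, cuts dipeptides from the end of proteins and also acts as an endopeptidase. The probe at chromosome 14, 62097179 to 62097238, read 7878 and 11578 in the mice and 10802 and 17303 in the pool. Each mouse was below the pool on its own array, at -0.46 and -0.58 (mean -0.52 ± 0.09, 1.43-fold lower, adjusted p = 0.0310, limma). With normexp and loess this probe too was on the other side of 0, at 0.23 ± 0.37 (adjusted p = 0.479). With the loess curve fitted on probes above background in both channels it was called lower, at -0.62 ± 0.03 (adjusted p = 0.0103, limma). Leaving out median centring of scanner signals, 9 of 11 alternatives put this probe below 0 and 2 above, and 5 called it lower. A second Ctsb probe, on chromosome 14 from 62099404 to 62099463, was not well above background in Cy5 on either array and in Cy3 only on array 2. It has no fold, because its Cy3 signal lay below the lowest Cy5 signal that counted as well above background.

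Ctsa, the carboxypeptidase also known as protective protein, keeps the sialidase Neu1 and the galactosidase Glb1 stable in a lysosomal complex. Its brightest probe (chromosome 2, 164530494 to 164530553) was at -0.63 and -0.39, a mean of -0.51 ± 0.17 (1.42-fold lower, adjusted p = 0.0357, limma). It was not called with normexp and loess (-0.36, adjusted p = 0.127) or with the curve fitted on probes above background in both channels (-0.27, adjusted p = 0.117). A neighbouring probe (164530093 to 164530152) was also below 0 on both arrays, at -0.34 and -0.22, but did not pass the test (adjusted p = 0.179, limma). The third probe (164532138 to 164532197) had no Cy5 signal well above background on either array and gives no fold. Neu1 rose, at 0.99 ± 0.05 (1.98-fold, adjusted p = 0.00291, limma), so the ratios of Ctsa and its partner had opposite signs.

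Ctsd, cathepsin D, is the main aspartic protease of lysosomes. Its brighter probe (chromosome 7, 142185447 to 142185506) was above 0 in both mice, at 0.49 and 0.29, a mean of 0.39 ± 0.14 (adjusted p = 0.0801, limma). The dimmer probe, whose sequence spans an interruption in the genome (142186113 to 142186266), read 0.10 and -0.16, on opposite sides of 0. In Cy5 that probe was 17.7 and 12.2 scanner units over background, against 141 and 172 for the brighter one. With an intensity trend in the variance the brighter probe was called higher (adjusted p = 0.0242, limma). Among 11 alternatives, leaving out median centring of scanner signals, this was the only 1 to call it. It was at 0.47 with normexp and loess (adjusted p = 0.117, limma). With the loess curve fitted on probes above background in both channels it was at 0.13 (adjusted p = 0.415, limma).

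Ctsh, an aminopeptidase, and Ctsz (cathepsin X), a carboxypeptidase, did not pass the test. Ctsh (chromosome 9, 89873883 to 89873942) was at -0.29 and -0.03, and at 0.41 on average with normexp and loess. The 2 Ctsz probes on chromosome 2 read -0.03 and -0.26 at 174070666 to 174070725, and -0.08 and 0.14 at 174071522 to 174071581. The means of these 3 probes, from -0.16 to 0.03, were no larger than their SDs of 0.16 to 0.19.

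Ctse, the other aspartic protease, is an endosomal enzyme of immune and epithelial cells. Its single probe (chromosome 1, 133502904 to 133502963) was well above background on array 2 alone, in both channels, and had a ratio of 1.46 there. On array 1 neither channel passed, and the ratio of 2.20 rests on a processed Cy3 signal of 61.7, below the 219 that was the lowest Cy3 signal counted as well above background on that array. Ctse was therefore measured in 1 mouse and was not tested.

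In order of mean ratio the 8 genes ran Ctsl, Ctsd, Ctsz, Ctsh, Ctsa, Ctsb, Ctss and Ctsc. Ctsl stood apart from its neighbour, since its lower mouse (1.15) was above the higher Ctsd ratio (0.49). Ctsd in turn was above Ctsz in both mice at the brightest probes, while the ranges of Ctsz and Ctsh overlapped, and so did each neighbouring pair from Ctsa to Ctsc. Ctsh, at -0.29 in its lower mouse, did not overlap with Ctsa, at -0.39 in its higher one. Within an array, Ctsl exceeded Ctss by 2.71 and 1.63 on the log2 scale, and Ctsb by 2.33 and 1.73. The same differences before any dye normalization, from signals over local background, were 2.82 and 1.65 for Ctss and 2.50 and 1.76 for Ctsb. The unequal ratios of Ctsl and these bright cathepsins were thus present in the unnormalized signals, which do not show which gene changed. Without a dye swap, such a difference cannot be told apart from unequal dye effects of the probes.

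**Figure D3:**
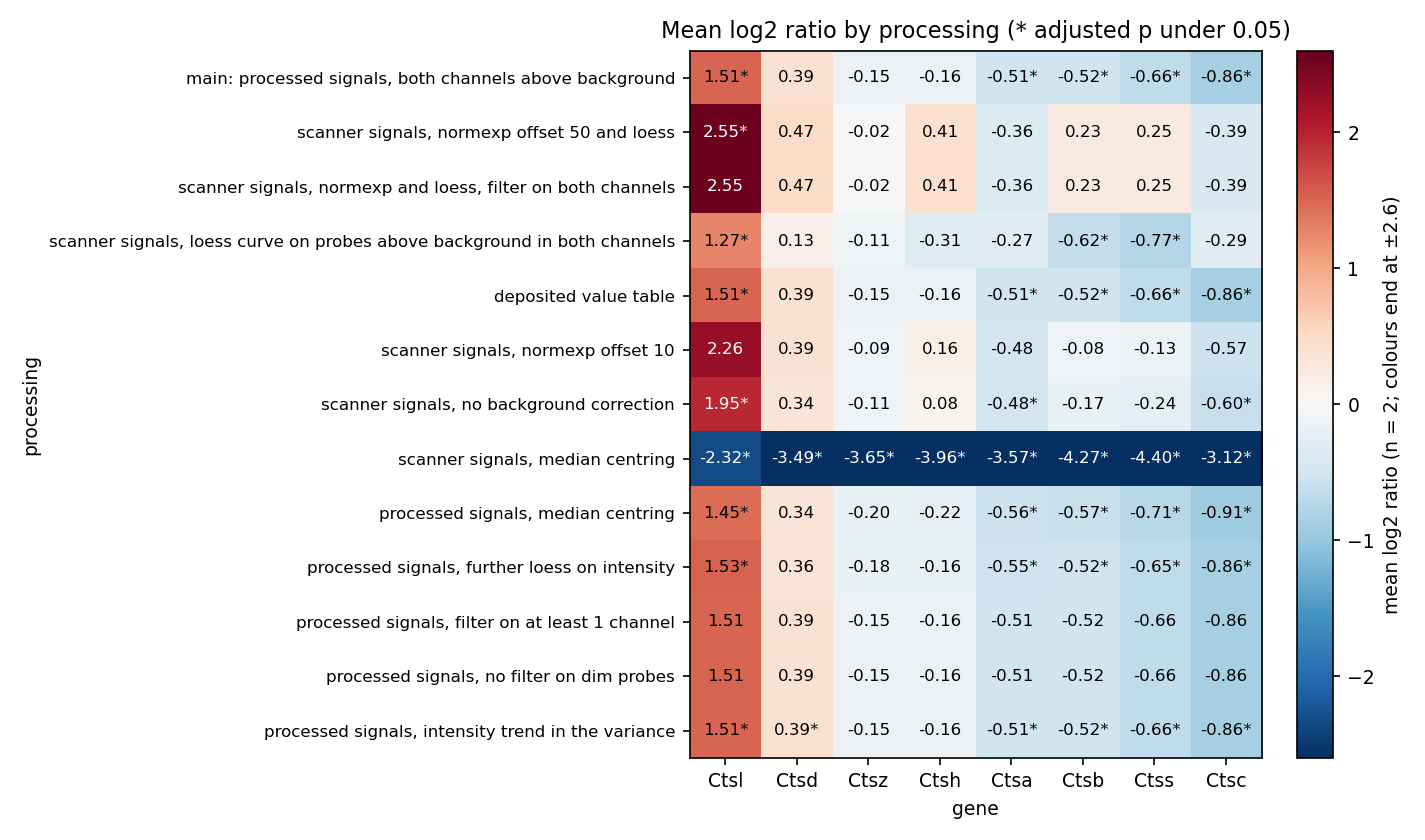
Mean log2 ratio (n = 2) of each tested cathepsin gene at its brightest probe, under the processing used for the results (top row) and 12 alternatives. Ctsl is between 1.27 and 2.55 everywhere except with median centring of the scanner signals, and Ctsb, Ctss and Ctsh cross 0 with normexp (offset 50) and loess.

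Processing decided several of these calls. In scanner signals with normexp (offset 50) and loess, 5.67% of all genes were called (5.17% higher and 0.494% lower), as were 5.26% of probes (4.77% higher and 0.488% lower), and of the cathepsins only Ctsl, at 2.55 ± 1.26 (adjusted p = 0.0355, limma; 3.45 on array 1 and 1.66 on array 2). When dim probes were admitted to the fit of processed signals, 0 genes were called by limma. For the filter on 1 channel, 3391 probes had an unadjusted p under 0.05, and Ctsl had an adjusted p of 0.0693. Without any filter Ctsl had an adjusted p of 0.541. Normexp and loess filtered on both channels did not call Ctsl either (adjusted p = 0.0919, limma). Leaving out median centring of scanner signals, 7 of 11 alternatives called Ctsl higher.

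In the RefSeq table (GRCm38.p6) the windows of 4 member genes, Ctsa, Ctsd, Ctss and Ctsz, end at the annotated gene start. Those of Ctss and Ctsd are shown because they hold matches to the motifs searched, while those of Ctsa and Ctsz hold 0. Each is the 250 bases before that start, 5′ to 3′ on the gene's strand. Capitals mark matches, on either strand, to 3 motifs: the E-box CACGTG, which is the core of the site bound by the lysosomal regulator Tfeb, the interferon response motif (GAAA, any 2 bases, GAAA), and GAGGAA, the core of PU.1 sites in myeloid genes.
Ctss (chr3:95526536-95526785, plus strand): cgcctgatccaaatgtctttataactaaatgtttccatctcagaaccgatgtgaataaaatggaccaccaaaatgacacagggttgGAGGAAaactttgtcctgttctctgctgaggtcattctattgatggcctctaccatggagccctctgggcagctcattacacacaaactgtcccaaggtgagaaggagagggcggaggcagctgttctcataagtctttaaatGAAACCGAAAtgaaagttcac
Ctsd (chr7:142387828-142388077, minus strand): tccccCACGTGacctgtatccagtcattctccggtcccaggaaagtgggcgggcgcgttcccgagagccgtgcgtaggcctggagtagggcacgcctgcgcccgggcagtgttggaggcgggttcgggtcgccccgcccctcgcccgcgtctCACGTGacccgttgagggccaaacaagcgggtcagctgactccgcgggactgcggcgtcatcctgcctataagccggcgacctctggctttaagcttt
The Ctss window held the interferon response motif starting at position -21 and GAGGAA at position -164. The Ctsd window held CACGTG at positions -245 and -98. Of 32851 mouse windows of this length, 2.98% held the interferon response motif, 23.3% GAGGAA and 6.02% CACGTG. Another motif, TTCNNNGAA, the gamma-activated site, was in 7.02% of windows and in neither of these. No matches overlapped, and a match describes letters only. Of 6 member genes with a window, those of Ctsl and Ctsc lie inside the gene's span and are not shown, nor is a further Ctsa window inside its gene, which holds CACGTG at position -12.

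The relatives and inhibitors of these enzymes were mostly dim. Of 14 other cathepsin genes on the array, Ctso alone was tested, and it rose, at 0.66 ± 0.15 (1.58-fold, adjusted p = 0.0143, limma). With normexp and loess Ctso was not called, at 0.21 (adjusted p = 0.348, limma). Ctsw, a cathepsin of cytotoxic T and natural killer cells, was well above background in Cy3 on both arrays but in Cy5 on array 2 only, and read -1.22 and -1.13. Of 9 inhibitors 3 were tested, and 1 was lower, namely Serpina3g, which in mouse inhibits cathepsin B in the cytosol, at -0.89 ± 0.29 (1.86-fold lower, adjusted p = 0.00613, limma). Serpina3g was not called with normexp and loess, at -0.67 (adjusted p = 0.0592, limma). The secreted cystatin Cst3 was at -0.44 ± 0.12 (adjusted p = 0.0548) and the intracellular cystatin Cstb at -0.06 ± 0.10.

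Membrane proteins, soluble enzymes, the proton pump and sorting factors of the lysosome were listed separately. Of 9 tested lysosomal membrane genes, 5 were higher, 0 lower and 4 not called, with a median of 0.65. They were the cystine exporter Ctns (1.30 ± 0.77), the membrane proteins Laptm4a (0.96 ± 0.39) and Laptm5 (0.65 ± 0.10), the tetraspanin Cd63 (0.88 ± 0.01) and the coat glycoprotein Lamp1 (0.86 ± 0.30). Their share can be read against the 25.4% of all genes called higher. The soluble hydrolases and activators had a median of -0.06, and 17 of 21 were not called, where 43.6% of all genes were called in either direction. Neu1 was among those called higher, and the glucuronidase Gusb (-0.68 ± 0.08) and the acid phosphatase Acp5 (-0.63 ± 0.23) were lower. Lgmn, the asparaginyl endopeptidase that processes several cathepsins in mouse, was at 0.01 ± 0.07. Of 7 proton pump genes Atp6v0b (0.81 ± 0.34) and Atp6ap2 (0.44 ± 0.05) were higher, Atp6v1g1 (-0.49 ± 0.06) was lower and 4 were not called, beside the same 43.6%. Sorting genes were mostly dim, with M6pr, a mannose 6-phosphate receptor, at -0.21 ± 0.08, Vps29 at -0.23 ± 0.19 and 0 of 2 called. None of these groups was tested against another, and with normexp and loess 4 of their genes were called in all, each higher: Neu1, Psap, Cd63 and Lamp1.

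**Figure D4:**
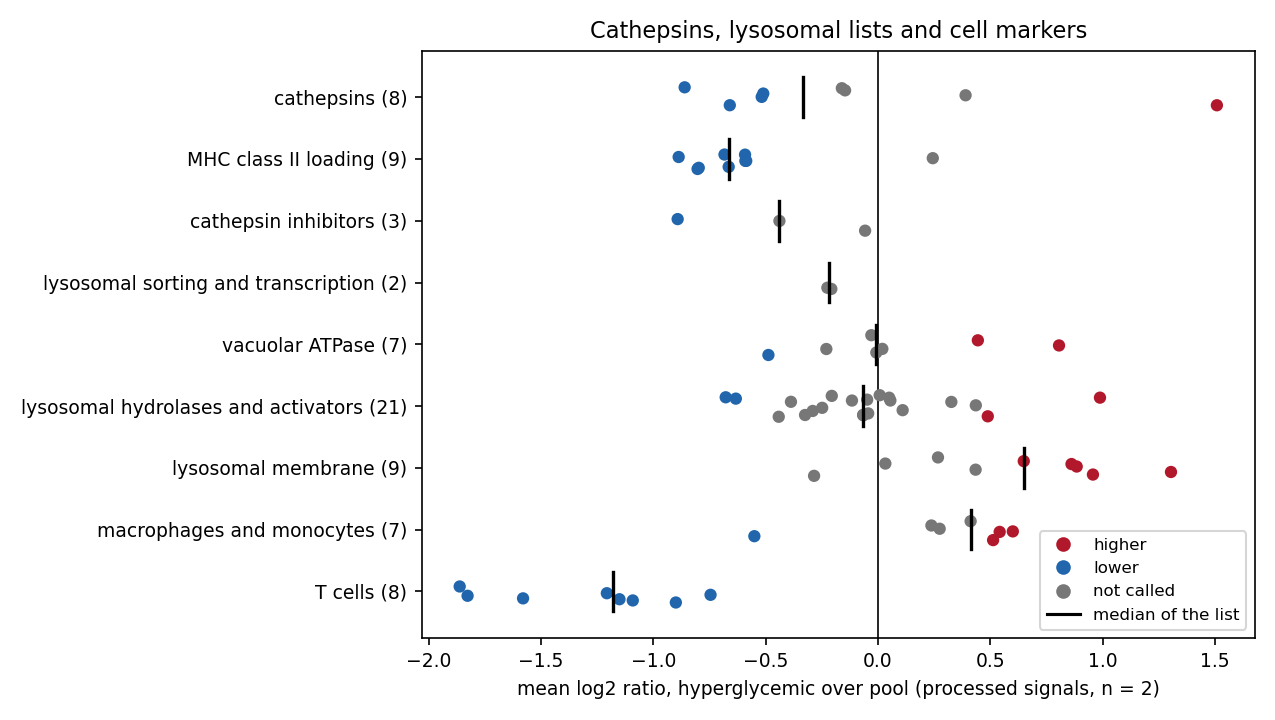
Mean log2 ratio (processed signals, n = 2) of the tested genes in each list, with the number tested in brackets; red was called higher, blue lower, grey not called, and the bar is the median. The cathepsins spread from -0.86 to 1.51, the class II genes centre on -0.66 and the lysosomal membrane genes on 0.65.

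Cathepsins act on antigen and on the invariant chain during class II presentation. Of 9 tested MHC class II loading genes, 8 were lower, 0 higher and 1 not called, with a median of -0.66, while 18.2% of all genes were called lower. They included Cd74, the invariant chain that Ctss cuts, at -0.66 ± 0.10 (1.59-fold lower, adjusted p = 0.0127, limma), the class II chain H2-Aa at -0.89 ± 0.01 and H2-Eb1 at -0.80 ± 0.05, and Ifi30, the lysosomal thiol reductase, at -0.80 ± 0.07. With normexp and loess 0 of 9 were called, and Cd74 and H2-Ab1 were above 0, at 0.52 and 1.56. Ciita, the regulator of class II transcription, was at 0.24 ± 0.60.

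Markers of cell types were counted in the same way, and their counts stand beside 25.4% of all genes called higher and 18.2% called lower. Of 14 macrophage and monocyte markers 7 were tested, 3 higher, 1 lower and 3 not called, with a median of 0.41. Marco (0.60 ± 0.24), Adgre1 (0.54 ± 0.39) and C1qc (0.51 ± 0.02) were higher, C1qa (-0.55 ± 0.13) was lower, and Csf1r and Lyz2 were at 0.27 ± 0.20 and 0.24 ± 0.34. With normexp and loess 2 of 10 were called, Marco and Lyz2, both higher. Adgre1 (0.03), C1qc (0.32) and C1qa (-0.29) were not called there. The lysosomal macrophage marker Cd68 did not pass the filter. The summed processed signal of the 7 markers was 108032 and 166669 in the hyperglycemic mice, against 90226 and 122146 in the pool. All 8 tested T cell markers were lower, with a median of -1.18 (with normexp and loess 1 of 10 was called lower, at a median of -0.51), and sums of 9645 and 14790 in the mice and 22059 and 34003 in the pool; the largest differences were in Cd3g (-1.86 ± 0.15), Cd8a (-1.83 ± 0.22) and Il7r (-1.58 ± 0.12). Among B cell markers Ms4a1 (-1.12 ± 0.06) was lower and Pax5 (1.17 ± 0.75) was higher, while 0 of 6 were called with normexp and loess. The 4 B cell sums were 11474 and 18883 against 16251 and 26260. Of 10 dendritic cell markers only Ccr7 was tested, at -0.73 ± 0.18, and Itgax, Flt3 and Zbtb46 did not pass the filter. Ccr7 was not called with normexp and loess, at -0.35. For exocrine pancreas 11 of 18 were higher and 2 lower, with a median of 0.66 and sums of 2447634 and 4349167 against 1829994 and 2637836. Try5 (1.51 ± 0.18) and Ctrb1 (1.11 ± 0.35) were among the higher ones, and Amy2a5 (-2.15 ± 0.13) and Cela1 (-0.73 ± 0.70) were the lower ones; with normexp and loess 17 of 18 were higher and none lower. Of 7 neutrophil markers on the array only S100a9 was tested, and it was higher (1.46 ± 0.46), while S100a8 did not pass the filter. All 3 tested erythroid genes, Hba-a1 (1.23 ± 0.20), Alas2 (1.10 ± 0.35) and Slc4a1 (0.78 ± 0.14), were higher. Alas2 and Slc4a1 were not called with normexp and loess, at 0.29 and 0.22. Kdr (1.62 ± 0.34) and Lyve1 (0.71 ± 0.32) of endothelium were higher, with 2 of 4 not called. Neither was called with normexp and loess, at 0.30 and 0.21, where Glycam1 (-0.42 in processed signals) was called higher, at 1.41. Lum (1.20 ± 0.07) and Dcn (1.00 ± 0.49) of stroma were higher, Ccl19 (-1.04 ± 0.00) and Col3a1 (-0.76 ± 0.20) lower and 2 not called. Of 8 stromal genes tested with normexp and loess 0 were called, and Ccl19 was on the other side of 0, at 1.01. Cidec (-1.91 ± 0.45) and Cfd (-1.63 ± 0.03) of adipocytes were lower, with 1 of 3 not called. Only Cfd was called with normexp and loess, at -0.93. The part of these cell types in the cathepsin ratios was not tested.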

How the data were processed

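The 14 cathepsin probes were read on 2 arrays (Agilent-014868), each with 1 hyperglycemic mouse in Cy5 and the shared pool in Cy3; groups came from the labels. Per the file headers, the scan software was Agilent Feature Extraction 10.7.3.1. The deposited spot and background columns are scanner intensity with no normalization, and the deposited processed intensity was background-subtracted, detrended, replaced by surrogates where dim and dye-normalized by LOWESS. The deposited log10 ratio is that of the processed signals, and the p-value beside it, per the file headers from an error model of 1 array, stayed out of all tests. Values in the deposited table are log2 and equal those log10 ratios after a change of base.

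Spots marked as outliers were left out and spots of a probe averaged. The mean log2 ratio of a probe was tested against 0 with limma 3.58.1 under R 4.3.3 (lmFit and eBayes, two-sided, 1 residual degree of freedom), with Benjamini-Hochberg adjustment over all tested probes. Every adjusted p in the text is from limma. The procedure was tested on simulated data, drawn with independent errors from the spread that limma had fitted. Those data held no dye effect and no shared pool, so they cannot show how far calls hold on these arrays. A gene was taken at its brightest tested probe. Of 41174 probes, 23374 matched a RefSeq accession, 6733 a symbol and 2959 a synonym, used for names alone; positions are those of mm8 in the files, and exon or UTR was not assigned. Alternatives used normexp with loess (span 0.3), other centring, other filters and the deposited value table. The members, lists and fits were chosen with earlier results of these data known. All 9 cathepsins were named, and from each list up to 3 called genes per direction with the largest mean, plus defining markers; Laptm5, Lamp1, Psap, Cd74, Ciita, Cst3, Cstb, Lgmn, M6pr, Vps29, Ctsw, H2-Ab1, Itgax, Flt3, Zbtb46 and the granule proteases were named after their values were seen. Some genes the rule names are not reported here. With 2 arrays no measure of likeness between genes could be had. No culture, litter or day is labelled. The p-values rest on the spread between these 2 mice, drawn by limma towards a spread shared by all tested probes. That shared spread had 6.35 prior degrees of freedom against 1 residual, so it weighed more than a probe's own 2 values. Precision is limited by having 2 arrays.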

Additional observations from a re-analysis of the deposited data

How the results depend on the processing

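No paired analysis was possible because both mice were compared with 1 common pool. The median over the 11 cathepsin probes, -0.16, was 0.0095 with normexp (offset 50) and loess under either filter, -0.087 with offset 10, -0.22 with the processed signals centred on their median and -3.49 with median centring of the scanner signals; without replicate 1 it was -0.22 and without replicate 2 -0.29. The count of called cathepsin genes, 5, was 1 with normexp and loess, 3 with the loess curve on probes above background in both channels, 3 with no background correction and 8 with median centring of scanner signals. It was 0 with normexp and loess filtered on both channels, with offset 10, and in processed signals filtered on at least 1 channel or not filtered. In the same order, 2205 called probes (1275 higher and 930 lower) became 463 (420 and 43), 584, 2083, 8608 (1 and 8607), 110 (110 and 0), 115 (102 and 13), 0 and 0, and 22 called genes of the pathway lists became 4, 11, 17, 77, 1, 0, 0 and 0. Among calls, 57.8% were higher in the main setting, and 90.7% with normexp and loess and 88.7% with offset 10. Unadjusted p was under 0.05 at 1159, 1637, 3391 and 4295 probes in the 4 settings with 0 cathepsin calls.

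Values on the other side of 0 were 0.25 for Ctss, 0.23 for Ctsb and 0.41 for Ctsh with normexp and loess under either filter, and 0.16 (offset 10) and 0.075 (no background correction) for Ctsh. The second Ctsz probe, at 0.03, was at -3.4e-05 with offset 10, -0.021 with no background correction, -0.023 with median centring and -0.010 with a further loess of the processed signals. Median centring of scanner signals put Ctsl at -2.32, Ctsd at -3.49 and the second Ctsz probe at -3.32. Its median over all probes was -2.01 and its ratios fell with intensity (Spearman's rho = -0.958 across 8804 probes), so it gives no direction. The median of all probes was 0.06 in the main setting, -0.06 with offset 10, -0.18 with the filter on 1 channel and -0.09 with no filter. Low Cy5 signal limits the third Ctsa probe, the second Ctsb probe, Ctse, Ctsc and the dimmer Ctsd probe.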

Other observations

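In scanner signals with normexp and loess the macrophage genes Lyz2 (3.50, adjusted p = 0.0109, limma) and Marco (2.81, adjusted p = 0.0214) were called higher, while in processed signals Lyz2 was at 0.24 (adjusted p = 0.309) and Marco at 0.60. The sphingolipid activator precursor Psap was called higher there at 0.61 (adjusted p = 0.0300) and read -0.05 in processed signals. Ctsl was also higher with that processing, at 2.55 against 1.51.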
